A study of Mus musculus with 4 samples.

Results

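Of 199576 regions called open in at least 1 of 4 ATAC-seq libraries, 65789 held a peak in all 4, and 14191 of these lay within 1 kb of either end of a protein-coding gene. These 14191 gene-end regions are described here, and the other 51598 regions with a peak in all 4 libraries serve as their comparison. The libraries came from motor neurons of the cervical spinal cord, taken from mouse embryos at embryonic day 12.5 and sorted for the green fluorescence of a ChAT::GFP reporter. There were 2 libraries from control and 2 from Hoxa5-deficient embryos, and embryos of both carried the reporter. Hoxa5 encodes a homeodomain factor, and it and its Hox5 paralogs are needed by motor neurons at cervical levels. The labels call the libraries of a genotype biological replicates; the number of embryos behind each, the Hoxa5 allele and any driver of its removal are not given in the sources used here. ChAT::GFP marks cholinergic cells as a class, so the sort itself does not separate motor neuron columns or pools.

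ATAC-seq uses the transposase Tn5, which inserts sequencing adapters where DNA is not wrapped in nucleosomes. Start sites of active genes are kept free of nucleosomes by transcription factors and the polymerase machinery, and in vertebrates most of them lie in CpG islands, stretches rich in CpG dinucleotides that escape DNA methylation. Genes used by every cell tend to have strongly open, CpG-rich promoters, many of them bound by factors such as Sp, ETS and NF-Y proteins, while developmental regulators often sit in long CpG islands under the control of Polycomb and Trithorax complexes.

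The promoter windows below show the extremes of the set as DNA. Each runs 5′ to 3′ along its gene from 250 bases before the start to 50 after it, taken from RefSeq on GRCm38.p6, which numbers bases as mm10 does. Capitals mark every match, on either strand, to 8 short motifs: the GC box GGGCGG, the CCAAT box CCAAT, the ETS site CCGGAAG, the NRF1 site GCGCATGCG, the cAMP response element TGACGTCA, the YY1 site AAGATGGC, the E-box CACGTG and the TATA box TATAAA. A match is a run of letters and not a shown binding site. The strongest regions that such a window overlapped were those of Hjurp (chr1:88277530-88277829, minus strand), Pja2 (chr17:64331834-64332133, minus strand) and Dnpep (chr1:75317588-75317887, minus strand).
Hjurp: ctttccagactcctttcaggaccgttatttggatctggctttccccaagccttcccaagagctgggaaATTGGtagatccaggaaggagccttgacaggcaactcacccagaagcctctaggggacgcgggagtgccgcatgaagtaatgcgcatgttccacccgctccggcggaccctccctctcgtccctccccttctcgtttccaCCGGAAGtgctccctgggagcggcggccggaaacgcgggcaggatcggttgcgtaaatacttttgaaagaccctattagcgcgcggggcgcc
Pja2: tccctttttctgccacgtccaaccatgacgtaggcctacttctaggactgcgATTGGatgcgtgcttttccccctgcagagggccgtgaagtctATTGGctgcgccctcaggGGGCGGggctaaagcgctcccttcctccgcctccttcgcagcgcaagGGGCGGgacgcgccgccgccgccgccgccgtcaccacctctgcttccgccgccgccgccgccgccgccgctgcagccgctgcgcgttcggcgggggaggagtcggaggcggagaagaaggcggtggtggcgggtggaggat
Dnpep: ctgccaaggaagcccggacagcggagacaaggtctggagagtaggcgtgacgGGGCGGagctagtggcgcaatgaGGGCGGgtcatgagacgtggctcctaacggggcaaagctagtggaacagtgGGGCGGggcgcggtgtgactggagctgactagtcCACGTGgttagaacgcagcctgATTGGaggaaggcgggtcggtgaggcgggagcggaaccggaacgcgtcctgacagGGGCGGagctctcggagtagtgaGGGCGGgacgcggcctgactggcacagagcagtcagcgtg
The widest that a window overlapped were at LOC108167694 (chr9:124423351-124423650, minus strand), Camk2n2 (chr16:20621229-20621528, minus strand) and Arid1b (chr17:4994824-4995123, plus strand).
LOC108167694: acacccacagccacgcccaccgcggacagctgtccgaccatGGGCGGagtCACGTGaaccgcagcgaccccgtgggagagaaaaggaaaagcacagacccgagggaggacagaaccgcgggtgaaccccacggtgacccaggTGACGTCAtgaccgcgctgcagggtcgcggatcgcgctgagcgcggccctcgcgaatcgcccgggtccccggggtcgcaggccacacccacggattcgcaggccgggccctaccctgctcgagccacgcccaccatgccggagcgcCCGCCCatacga
Camk2n2: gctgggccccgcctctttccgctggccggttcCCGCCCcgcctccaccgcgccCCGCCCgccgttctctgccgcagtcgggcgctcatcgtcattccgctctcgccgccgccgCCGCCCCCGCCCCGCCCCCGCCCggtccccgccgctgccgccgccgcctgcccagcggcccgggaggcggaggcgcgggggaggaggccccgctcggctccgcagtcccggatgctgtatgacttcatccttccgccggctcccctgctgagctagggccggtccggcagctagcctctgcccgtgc
Arid1b: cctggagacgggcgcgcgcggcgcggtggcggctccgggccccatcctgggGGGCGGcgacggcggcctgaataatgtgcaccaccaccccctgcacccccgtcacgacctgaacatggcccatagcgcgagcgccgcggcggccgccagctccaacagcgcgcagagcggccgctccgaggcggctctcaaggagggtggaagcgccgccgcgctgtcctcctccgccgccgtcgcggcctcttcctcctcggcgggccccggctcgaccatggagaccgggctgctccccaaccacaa
The weakest that a window overlapped were at Sp5 (chr2:70474673-70474972, plus strand) and Gabarapl1 (chr6:129532942-129533241, plus strand).
Sp5: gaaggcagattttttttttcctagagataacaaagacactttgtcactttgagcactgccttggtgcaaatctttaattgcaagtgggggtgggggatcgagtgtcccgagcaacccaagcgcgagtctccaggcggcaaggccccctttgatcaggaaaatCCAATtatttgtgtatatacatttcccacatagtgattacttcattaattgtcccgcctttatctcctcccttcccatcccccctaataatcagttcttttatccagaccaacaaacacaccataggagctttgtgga
Gabarapl1: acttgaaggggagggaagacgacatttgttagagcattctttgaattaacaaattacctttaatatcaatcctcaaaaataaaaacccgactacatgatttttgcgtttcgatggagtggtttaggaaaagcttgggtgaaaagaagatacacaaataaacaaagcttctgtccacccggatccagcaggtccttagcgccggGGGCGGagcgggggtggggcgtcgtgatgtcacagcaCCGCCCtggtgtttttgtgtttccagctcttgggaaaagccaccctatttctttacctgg
The 3 strong promoters each held a CCAAT box, with 1 match in Hjurp, 2 in Pja2 and 1 in Dnpep, and none of the 3 wide ones did. Of the weak ones, Sp5 held 1 match as well. Dnpep carried 5 GC boxes and Camk2n2 carried 6. The GC content was 79.0% in Camk2n2 and 75.3% in Arid1b, against 45.0% in Sp5 and 46.3% in Gabarapl1. The region at Gabarapl1, which encodes an autophagy protein, ended at base 129532947, so it reached only the first bases of the window.

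Each region had 4 values in each library. Width is the number of bases that the library's intervals covered within the region, and summits are the local maxima the peak caller reported there. Fold is the enrichment over background at the highest summit, and the percentile is the rank of the region's highest −log10 p among all regions of that library, so 99 means above 99% of them. Fold and −log10 p are the authors' own values and are used only within a list. The strength of a region is the lowest of its 4 percentiles, so a strong region ranked high in every library.

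Gene-end regions were wide, many-summited and strong in each library. Their median width was 955 and 952 bp in the control libraries and 1011 and 1007 bp in the Hoxa5-deficient ones. The other shared regions had medians of 460, 459, 536 and 564 bp in the same order. The means were 981 ± 32.1 bp (SD, n = 4) and 505 ± 53.5 bp (SD, n = 4), a difference of 476.5 ± 24.1 bp (SD, n = 4). The library medians of the 2 sets did not overlap. The SD here and below is over the 4 libraries and so spans both genotypes. Summits per region averaged 2.63 ± 0.07 (SD, n = 4) at gene ends and 1.64 ± 0.06 (SD, n = 4) elsewhere. Median fold was 12.3 ± 0.69 (SD, n = 4) against 5.54 ± 0.55 (SD, n = 4), and the median percentile was 92.2 ± 0.72 (SD, n = 4) against 65.5 ± 2.71 (SD, n = 4). For each of the 4 measures the gene-end value was higher in 4 of 4 libraries, with an exact two-sided sign-flip permutation p of 0.13 over n = 4 libraries, the smallest that 4 libraries allow.

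Each kind of region in the comparison set gave the same direction. Median widths were 506 ± 51.9 bp (SD, n = 4) for the 26248 regions inside gene bodies, 491 ± 43.5 bp for the 17120 outside genes and 530 ± 78.4 bp for the 8230 more than 100 kb from any gene. Median fold was 5.43, 5.90 and 5.25 in those sets. Set against each, gene-end regions were wider and of higher fold in 4 of 4 libraries.

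At the highest summit of a gene-end region the median pileup recovered from the lists was 142 and 126 tags in the control libraries and 140 and 154 in the Hoxa5-deficient ones, where the other shared regions had 37, 32, 39 and 52. No pileup could be recovered at the highest −log10 p, as at Hjurp, Pja2 and Dnpep in each library. The region at Slc1a2 lacked a value only in Hoxa5-deficient library 2. These medians thus leave out the strongest regions, and not equally in each library. The lowest background recovered was 5.43, 4.39, 5.14 and 6.06 tags, with overlap between the genotypes. Read depth is not stated, so this value is only an indirect stand-in for it. Gene-end regions made up 12.9% and 13.3% of the regions of the control lists and 11.6% and 10.6% of the Hoxa5-deficient lists. They held 26.2%, 26.5%, 22.8% and 21.1% of all covered bases. Among the regions in the top 1% of each library by −log10 p, 88.6%, 89.2%, 87.9% and 87.8% were gene-end regions, so the top of every list was mostly gene ends.

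**Figure D1:**
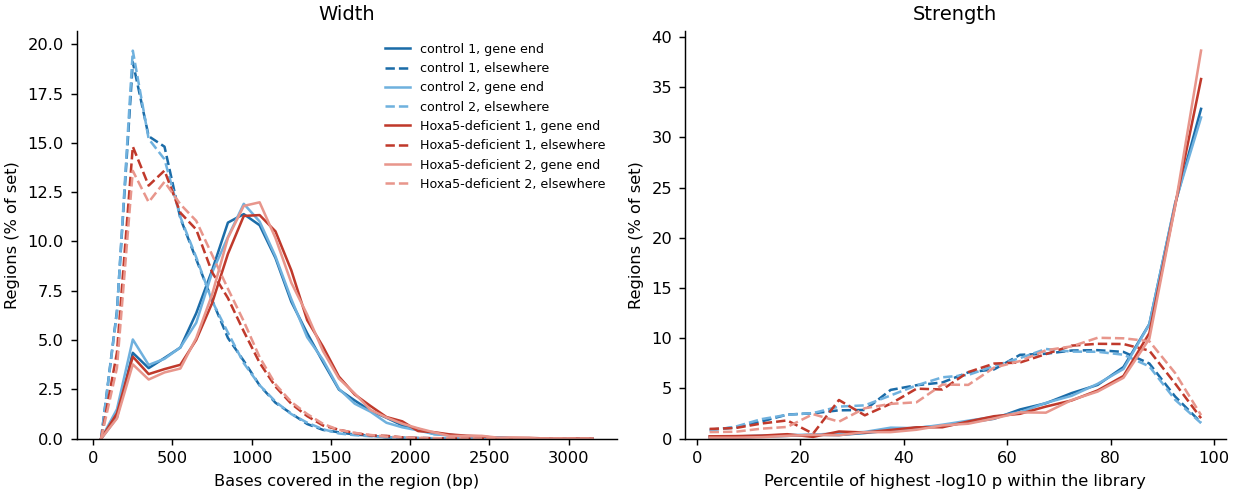
Share of regions (vertical axes, % of the set) by covered width in bp (left) and by percentile of the highest −log10 p within the library (right), for gene-end regions (solid lines) and other regions with a peak in all 4 libraries (dashed), 1 colour per library. Gene-end regions peak near 1000 bp and pile up at the highest percentiles, while the others peak below 500 bp.

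The place of a gene-end region also varied less between libraries. The highest summits of the 4 libraries lay within a median of 25 bp of each other at gene ends and 50 bp elsewhere. They fell within 50 bp in 72.6% of gene-end regions and in 50.4% of the others. Log2 width was centred on each library's median over all shared regions. The SD of this centred width over the 4 libraries then had a median of 0.14 at gene ends and 0.30 elsewhere. Merged over the libraries, gene-end regions spanned 183 to 3183 bp with a median of 1091 bp. Regions with 1 summit were 21.7%, 20.3%, 18.6% and 19.0% of gene-end regions and 53.5% to 59.6% of the others. Where a gene-end region had several summits, neighbours lay a median of 293 to 300 bp apart in the 4 libraries.

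Most gene ends in the set were starts. Of the 14191 regions, 10154 (71.6%) lay at the start of a gene, 1144 (8.06%) at far ends alone, where transcription stops, and 2893 (20.4%) at ends of genes without a strand entry. Starts were covered far more often than far ends, with 10653 of 17492 starts (60.9%) and 2051 of 17492 far ends (11.7%) within 1 kb of a region. In all, 13988 of 21887 protein-coding genes (63.9%) had at least 1. Most regions, 12065, had the ends of 1 gene within reach, 2064 those of 2 genes and 62 those of 3 or more.

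Start regions were the wider and stronger kind. Their median width was 1019 ± 30.1 bp (SD, n = 4) and their median fold 13.4 ± 0.63 (SD, n = 4), against 497 ± 37.0 bp and 6.27 ± 0.40 at far ends alone. Far-end regions thus had a median width and fold near those of the other shared regions, 505 bp and 5.54. Regions at the starts of 2 or more genes numbered 1017 and had a median percentile of 96.4 ± 0.35 (SD, n = 4). Those at the start of 1 gene had 93.1 ± 0.63 (SD, n = 4). The order was the same in 4 of 4 libraries for each of these pairs, and n = 4 libraries cannot give an exact sign-flip p below 0.13.

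Width and fold were lower in regions farther from the end. Distance ran from the end to the nearest base of the region, so a wide region overlaps an end more easily. The fall in width is thus partly built into the measure, and the distance groups were not redone from the summit. The 11111 regions that overlapped an end had a median width of 1034 ± 30.7 bp (SD, n = 4) and a median fold of 13.7. Those 1 to 250 bp away had 692.5 bp and 7.42. At 251 to 500 bp the values were 646.5 bp and 6.42. Most of the fall thus lay between regions that overlapped an end and those 1 to 250 bp away. The 522 regions just inside the limit, 801 to 1000 bp from an end, had a median of 535 ± 35.8 bp and a fold of 5.81, and the 484 just outside it, 1001 to 1200 bp away, had 560.5 ± 32.6 bp and 6.42.

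The highest summit sat just upstream of the start. Over the 10154 start regions its median position was -26 bp, and it lay within 100 bp of the start in 59.5% and upstream in 62.6%. With the 14191 regions split by strength into 5 groups of near equal size, the strongest group had a median summit position of -58 bp and 80.0% of summits upstream. The weakest group had 3 bp and 49.3%, and 38.7% of its summits lay more than 500 bp from the start. The share within 100 bp of the start was 31.4%, 46.7%, 67.3%, 74.2% and 65.2% from the weakest group to the strongest, so it was highest in the group below the top.

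**Figure D2:**
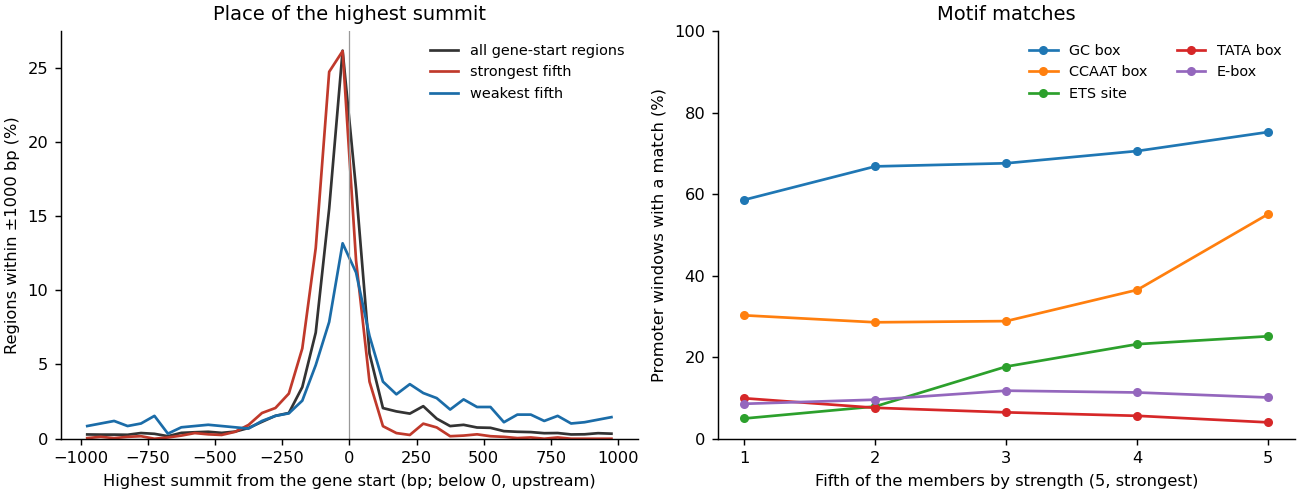
Left, position of the highest summit from the gene start in bp (below 0, upstream) as % of regions, for all start regions, the strongest of 5 strength groups and the weakest. Right, % of RefSeq promoter windows overlapping a gene-end region with a match to each of 5 motifs, by strength group from 1 (weakest) to 5 (strongest): the CCAAT box reaches 55.2% in group 5 and the TATA box falls to 4.01%.

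Promoter letters followed strength. Of 21263 RefSeq windows of 17492 genes, 11206 overlapped a gene-end region, 7624 overlapped no peak of any library and 2433 overlapped a region outside the set. The ratio of observed to expected CpG had a median of 0.79 in windows overlapping a gene-end region, 0.18 in windows with no peak and 0.57 over all windows. A ratio of at least 0.6, a usual mark of a CpG island, was found in 78.0%, 3.69% and 47.7% of them. Windows at open gene ends were thus mostly CpG-rich and those with no peak were not. Across the strength groups the median ratio ran 0.55, 0.69, 0.77, 0.83 and 0.85.

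Among the motifs, the GC box, read by Sp and Klf factors, was in 69.6% of windows overlapping a gene-end region, 10.6% of those with no peak and 46.2% of all windows of this length. It rose from 58.6% in the weakest strength group to 75.3% in the strongest. The GC box is itself made of G and C, and GC content differed between the sets, with medians of 62.3%, 46.7% and 56.3%; its part in these shares was not tested. The CCAAT box, bound by NF-Y, was as frequent in windows overlapping a gene-end region (38.3%) as in all windows (38.2%) or those with no peak (39.3%). Within the set it was in 30.3%, 28.6%, 28.9%, 36.5% and 55.2% of windows from the weakest to the strongest group, so it stood out only at the top. The ETS site was in 18.5% of windows overlapping a gene-end region and 11.6% of all, and ran from 4.97% to 25.1% over the groups.

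Other sites were also more frequent in windows overlapping a gene-end region than in all windows. The NRF1 site was in 3.93% of windows overlapping a gene-end region and 2.35% of all, the cAMP response element in 3.44% and 2.23%, the E-box in 10.6% and 7.84%, and the YY1 site in 4.49% and 3.05%. The YY1 site ran from 0.49% in the weakest group to 6.65% in the strongest. The NRF1 site was highest in the fourth group, at 5.83%, and at 4.65% in the strongest, and the E-box ran 8.57%, 9.58%, 11.8%, 11.3% and 10.1%. The TATA box went the other way. It was in 6.06% of windows overlapping a gene-end region, 23.7% of those with no peak and 12.6% of all, and fell from 9.93% to 4.01% over the strength groups. The TATA box is made of A and T alone, and median GC content was 62.3% in windows overlapping a gene-end region and 46.7% in those with no peak. The strings of the ETS site, the NRF1 site, the cAMP response element and the E-box each hold a CpG. The part of base composition in these shares was not tested. All shares count matches on both strands and anywhere in the window, and motifs may overlap one another.

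The CCAAT box and the ETS site followed width in another way than strength, while the GC box rose and the TATA box fell with both. In 5 groups by width, the GC box rose from 51.2% in the narrowest to 78.2% in the widest and median GC content rose from 56.7% to 68.0%. The TATA box fell from 9.61% to 4.02%. The ETS site was most frequent in the middle groups, at 8.03%, 21.1%, 24.7%, 19.2% and 12.9%. The CCAAT box was in 43.2% of windows of the second narrowest group and 32.9% of the widest. The widest promoters were thus the richest in G and C but not in ETS or CCAAT matches.

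The widest regions were mostly not the strongest. Of 1419 regions in the widest 10% (1388 bp or more) only 151 (10.6%) were also among the 1419 in the strongest 10%, which began at a strength of 98.05, and 38.3% of them were below the median strength of all gene-end regions. Median width was 519 bp in the weakest strength group, 956 bp in the next and 1058, 1065 and 1087 bp in the 3 strongest, so width stopped rising. Median fold by width group was 4.87, 14.4, 16.1, 14.7 and 11.6, highest in the middle. Across regions within a library, Spearman's rho of width was 0.42 to 0.46 with percentile and 0.79 to 0.81 with summit number, and that of fold with summit number was 0.05 to 0.13. These are descriptions over 14191 regions that share a library, its depth and, for neighbours, a locus.

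The strongest single region covered the start of Hjurp, the chaperone that loads the centromeric histone CENP-A. Its fold was 18.6 and 18.7 in the control libraries and 18.9 and 20.5 in the Hoxa5-deficient ones, with a percentile of at least 99.99 in each. Pja2, a ubiquitin ligase that acts on protein kinase A, followed with folds of 18.6, 19.96, 18.5 and 20.3. Dnpep, an aspartyl aminopeptidase, had 15.8, 17.3, 16.9 and 17.1. All 3 ranked above 99.96% of regions in every library. The next were Prmt5, an arginine methyltransferase, the shared region of Gmfg and Samd4b, Mtmr4, a phosphoinositide phosphatase, Stip1, which links the chaperones Hsp70 and Hsp90, Narf, Gatad2b, a subunit of the NuRD complex, and Hsd17b12, an enzyme of fatty acid elongation. Prmt5 had the highest folds of the 10, at 22.1, 24.3, 24.5 and 23.5. These 10 ran in width from 785 bp at Prmt5 to 1389 bp at Pja2 in the library where each was narrowest, and had 1 to 4 summits. Of them Pja2 was just inside the widest 10%.

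The widest region lay at Gm20783 and LOC108167694 on chromosome 9 (124422868 to 124425991), with 3104, 3107, 3117 and 3119 bp. The next covered the start of Camk2n2, an inhibitor of the calmodulin kinase CaMKII, and the end of Eef1akmt4, with 2921, 2964, 3007 and 2953 bp. Nsd1, a histone H3 lysine methyltransferase, had 2736, 2820, 2999 and 2908 bp on chromosome 13 (55210070 to 55213114). Their widths differed little between libraries, while their strength was 95.1, 78.3 and 87.2. The others of the 10 widest were Ctbp2 with Gm35364, Klf10, Rims2, Arid1b, Trim67, Tsc22d2 and Klhl29, each at least 2485 bp in every library. Ctbp2 is a transcriptional corepressor, Klf10 a zinc finger factor, Rims2 a scaffold of the presynaptic active zone and Arid1b a subunit of the BAF remodelling complex. Fold at the 10 widest was modest, from 4.32 at Ctbp2 to 11.3 at Tsc22d2.

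The regions with the most summits were wide ones. Nsd1 had 9, 10, 10 and 11 summits, and Slco5a1, a gene of the organic anion transporter family, had 9 in each library. Klhl29, Camk2n2 and Ajuba had at least 8 in each. Ajuba, a LIM domain protein, combined this with a strength of only 56.6 and folds of 4.301, 5.41, 3.55 and 4.23. Many summits thus occurred in strong and in middling regions alike.

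The weakest regions were Efnb1 at its far end, Hoxd12 and Sp5. Efnb1, the ligand ephrin-B1, covered 283 and 150 bp in the control libraries and 372 and 380 bp in the others, at percentiles of 33.95, 0.012, 57.9 and 36.4. Hoxd12, a posterior Hox gene that is not a cervical one, covered 473, 150, 343 and 806 bp at percentiles of 36.7, 0.029, 8.93 and 24.5. Sp5, a zinc finger factor downstream of Wnt signals, covered 915, 713, 245 and 477 bp at percentiles of 70.9, 60.8, 0.034 and 43.2. Strength takes the lowest of the 4, and Hoxd12 was below 40 in all libraries while Sp5 was low in 1. The smallest width in any library, 150 bp, was shared by many regions, among them Efnb1, Hoxd12, Rgs20, Prdm14 and Bzw1. Prdm14, a germ cell and pluripotency factor, covered 150 bp in control library 2 and 639 to 706 bp in the other 3.

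Far ends held few strong regions. The strongest lay 406 bp from the far end of Lars2, the mitochondrial leucyl-tRNA synthetase, at chromosome 9, 123461720 to 123462269. Its folds were 24.0, 24.5, 23.6 and 25.1 with widths of 546, 548, 546 and 550 bp. The next were Bcat2, a branched-chain aminotransferase, with folds of 23.0, 22.8, 26.4 and 25.1 and widths of 526 to 615 bp, and Gm46933, with folds of 15.4 to 15.7 and widths of 1212 to 1307 bp. Lars2 and Bcat2 had folds in the range of Prmt5 (22.1 to 24.5) or above over a smaller width. The regions were not filtered here for sites prone to mapping artefacts, so these were not checked for that. The widest far-end regions were at Sema6c, a semaphorin, with at least 1957 bp in each library, at Dbn1 and Prr7 with 1807 bp, and at Rps6ka4, a kinase of the MAPK pathway, with 1753 bp.

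**Figure D3:**
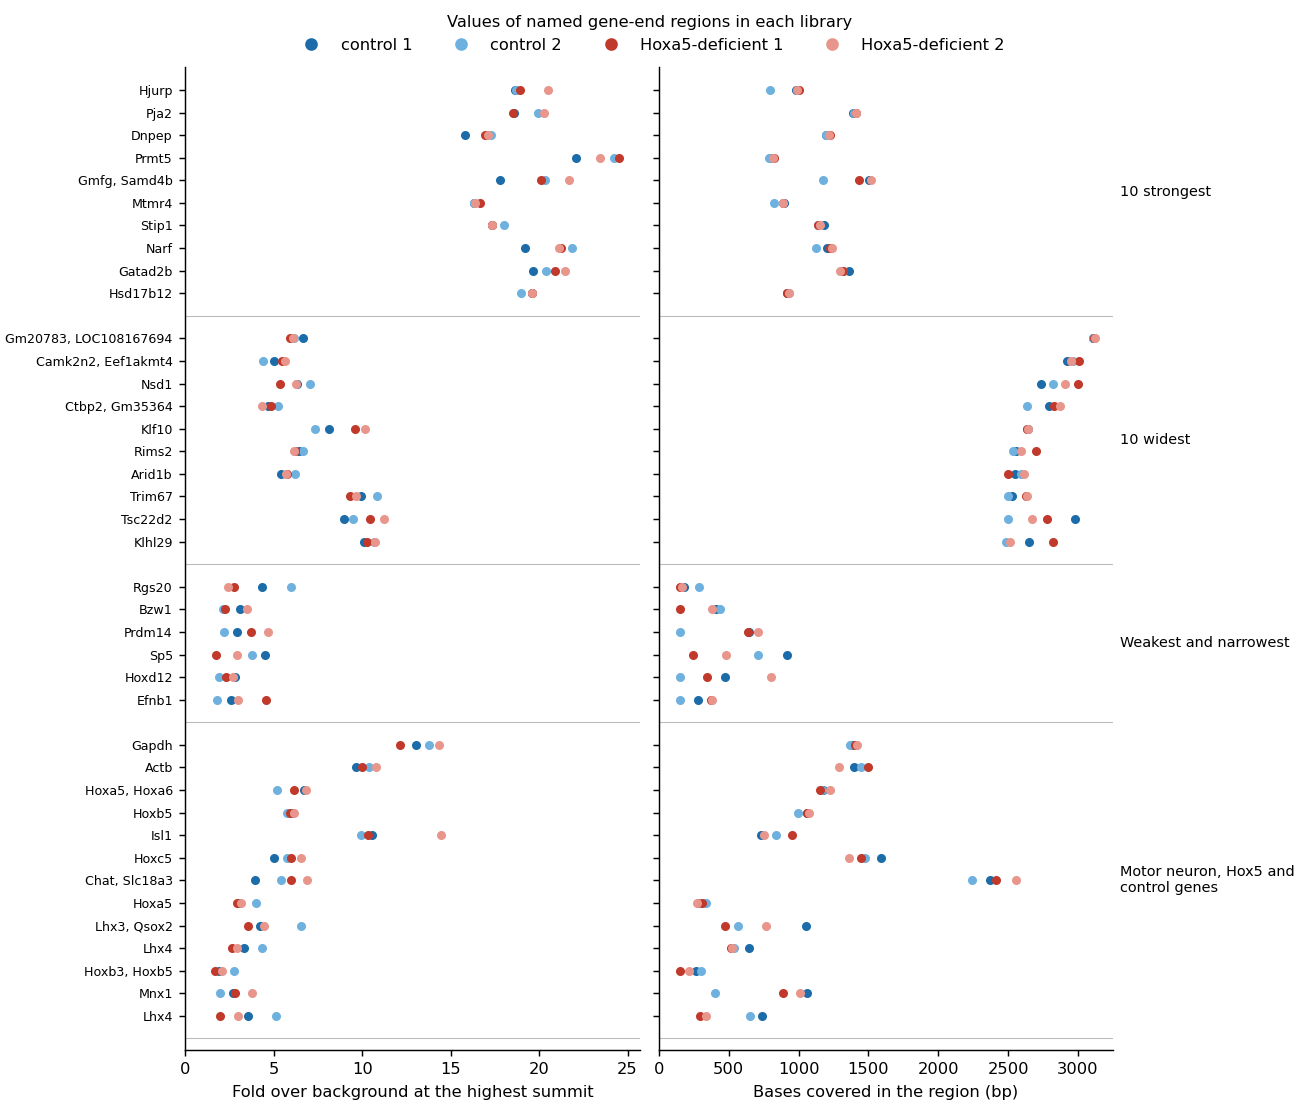
Fold over background at the highest summit (left) and covered width in bp (right) of named gene-end regions, 1 point per library. The 10 strongest sit above a fold of 15 at widths below 1600 bp, the 10 widest mostly below a fold of 10, and the weakest regions scatter between libraries in width.

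The gene classes with the strongest regions were mostly those of basic cell functions. Of 39 classes with 5 or more regions, 13 had a higher median percentile than all gene-end regions (92.2). Splicing and hnRNP genes led with a median percentile of 96.9 ± 0.14 (SD, n = 4) over 81 regions, and 68 of 70 genes had a region, against 63.9% of all protein-coding genes. Cytosolic ribosomal proteins followed with 96.4 ± 0.16 (SD, n = 4) over 95 regions of 80 of 85 genes. Polycomb and Trithorax genes had 95.8, translation factors 95.6, RNA polymerase subunits 95.5, proteasome genes 95.5 and chaperones 95.5. Cell cycle genes had 95.2, Rab GTPases 95.1, the respiratory chain 95.0, ubiquitin conjugation genes 94.9 and mitochondrial ribosomal proteins 94.5. Zfp zinc finger genes had 94.1 over 347 regions. Of the Rab regions 25.8% were in the strongest 10% of all gene-end regions, of the splicing regions 23.5% and of the chaperone regions 23.0%.

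Single genes show the range within these classes. Among ribosomal genes Rps29 had widths of 1310, 1250, 1294 and 1300 bp and folds of 18.7, 19.0, 19.0 and 19.5. Hnrnpc, an RNA-binding protein of the spliceosome's hnRNP set, shared a region with Rpgrip1 with a strength of 99.7. Eif5, an initiation factor, and Rab40c had strengths of 99.9 each. The histone genes of the clusters stood lower, with a median percentile of 91.8 ± 0.92 (SD, n = 4), a median width of 854 bp and a median fold of 9.58 over 51 regions. The strongest of these, shared by H2ac19 and H3c15, had a strength of 98.2. Ribosomal regions by contrast had a median fold of 16.7 at a median width of 962 bp.

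The order by width was another one. Endothelial markers had the highest median width, 1263 bp, but over 6 regions only. Polycomb and Trithorax genes, the chromatin regulators that hold developmental genes off or on, had a median width of 1243 ± 44.6 bp (SD, n = 4) over 34 regions, and 32.4% of these were in the widest 10%. Sox transcription factors had 1164 ± 25.1 bp over 21 regions with 33.3% in the widest 10%, ubiquitin conjugation genes 1127.5 ± 31.2 bp over 107 regions with 17.8%, and semaphorins with their receptors 1122 ± 35.6 bp with 27.3%. Ribosomal regions had 1.05% in the widest 10%. Polycomb and Trithorax genes and ubiquitin conjugation genes also stood above all gene-end regions in median percentile, at 95.8 and 94.9. In the strongest 10% were 2.94% of the Polycomb and Trithorax regions and 15.9% of the ubiquitin conjugation regions. Sox genes stood at a median percentile of 80.8 and semaphorins with their receptors at 88.7. Kmt2a, a Trithorax-group methyltransferase, covered at least 2209 bp at a strength of 96.1, and Sox11, a factor of young neurons, covered 2386, 2335, 2369 and 2492 bp at a strength of 97.4.

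Patterning genes had regions in most members but weak ones. Hox genes had regions at 33 of 39 genes, 49 in all, with a median percentile of 73.6 ± 4.43 (SD, n = 4), a median fold of 4.20 and a median width of 710 bp. Other homeobox genes had regions at 135 of 159 genes, 173 in all, with 69.1 ± 3.41 (SD, n = 4), a fold of 4.96 and 815 bp. No Hox region was in the strongest 10%. Among the stronger Hox regions were those at Hoxd1 (strength 90.6), Hoxb4 (89.4) and Hoxb9 (88.8), and wide ones lay at Hoxd8, with 1615, 2037, 1796 and 1847 bp, and Hoxb4, with 2040, 2040, 1851 and 1516 bp. Progenitor markers stood at a median percentile of 73.4 and interneuron transcription factors at 69.5, with Prdm8 (91.6) and Lhx1 (90.3) the strongest of the latter.

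Neuronal genes lay between. Synaptic vesicle genes had regions at 53 of 55 genes with a median percentile of 89.4 ± 1.26 (SD, n = 4) and 1068 bp, and Rab3a, a GTPase of synaptic vesicles, reached a strength of 98.98. Eph receptors and ephrins had 87.4, potassium channels 83.2, sodium and calcium channels 83.0 and neurotransmitter receptors 81.6. Adrb1, an adrenergic receptor, was the widest among receptors with at least 2420 bp in each library at a strength of 65.9. Of the olfactory receptors 5 of 1110 genes had a region, of the vomeronasal receptors 3 of 353 and of the keratins 15 of 109, all below the 63.9% of all genes.

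**Figure D4:**
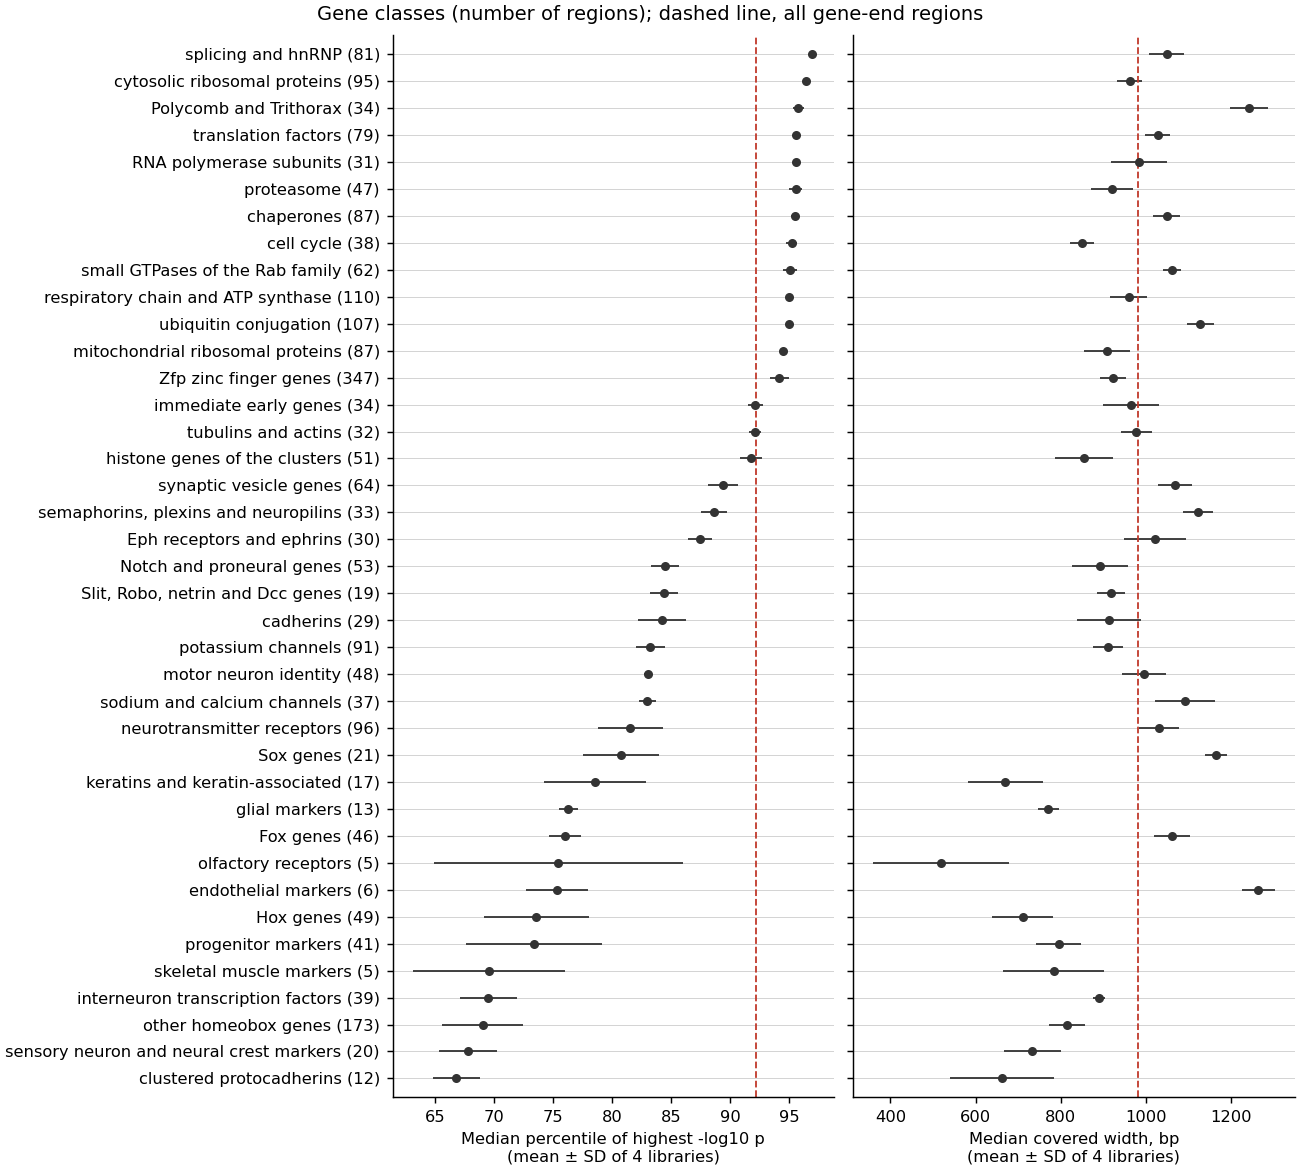
Median percentile of the highest −log10 p (left) and median covered width in bp (right) of the gene-end regions of each class with 5 or more regions, as mean ± SD of the 4 libraries, sorted by percentile; the number of regions is in brackets and the dashed lines mark all gene-end regions. Splicing and ribosomal genes are at the top in percentile at about average width, and Polycomb and Trithorax genes lie right of the dashed line in both panels.

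Motor neuron identity genes had regions at 34 of 38 genes, 48 in all, with a median percentile of 83.0 ± 0.34 (SD, n = 4) and a median width of 995 ± 51.6 bp. None was in the strongest 10% and 14.6% were in the widest 10%. The strongest lay at Ache, which breaks down acetylcholine, with Srrt and Ufsp1 (97.9), Onecut2 (96.2), Lmo4 (96.1) and Tubb3 with Mc1r (95.99). The shared region of Chat, the enzyme of acetylcholine synthesis, and Slc18a3, its vesicular transporter, was the widest of the class. It lay at chromosome 14, 32462857 to 32465459, and covered 2367 and 2240 bp in the control libraries and 2410 and 2558 bp in the Hoxa5-deficient ones. Its percentiles were 79.5 and 85.1 in the controls and 91.1 and 93.2 in the others, with no overlap of the genotypes. By the rank of −log10 p among the shared regions alone, both Hoxa5-deficient libraries lay above both controls here and in 29.1% of all shared regions. The difference in log2 width of the Chat region did not pass (limma, Benjamini-Hochberg adjusted p = 0.458).

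The determinants of motor neuron fate had weaker regions. Isl1 covered 732, 837, 952 and 753 bp at percentiles of 87.9, 85.7, 86.6 and 89.6. Lhx3 with Qsox2 covered 1051, 564, 476 and 766 bp at 61.7, 69.4, 46.9 and 59.1. Mnx1 covered 1062, 402, 885 and 1012 bp at 40.7, 3.59, 38.9 and 55.8. Of the 3 Isl1 thus varied least in percentile, and Mnx1 was low in control library 2. Lhx4, which acts with Lhx3, had regions near both ends. That at its far end covered 738 and 653 bp in the controls and 292 and 337 bp in the Hoxa5-deficient libraries (limma, Benjamini-Hochberg adjusted p = 0.137). By width rank both Hoxa5-deficient libraries lay below both controls in 32% of all shared regions. That at its start covered 642, 538, 515 and 523 bp. Isl2 had no gene-end region in all 4 libraries, and the marker Prph had none either.

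All 3 Hox5 paralogs had gene-end regions. At Hoxa5 the region over its start, shared with Hoxa6, covered 1174, 1168, 1150 and 1224 bp with folds of 6.69, 5.20, 6.12 and 6.83. A second one, 778 bp from its far end, covered 277, 337, 311 and 276 bp. The Hoxa5-deficient libraries thus kept both regions, and without the allele's description they do not check the genotype. Hoxb5 covered 1061, 998, 1062 and 1073 bp and Hoxc5 1589, 1476, 1449 and 1364 bp, at strengths of 87.7 and 85.5. A region shared by Hoxb5 and Hoxb3 covered only 269, 301, 150 and 216 bp. For scale, Actb covered 1396, 1450, 1494 and 1287 bp at a strength of 95.1 and Gapdh 1384, 1368, 1403 and 1420 bp at 96.2.

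Markers of other cell types were set beside the motor neuron label, with the caution that an open end does not show that a gene is transcribed. Of 11 motor neuron markers 9 had a gene-end region, with strengths from 1.45 to 89.8 and a median of 46.9. Of 5 progenitor markers 4 had one (not Pax6), with strengths from 50.05 to 90.8 and a higher median, 77.8. None of the 4 blood, 4 microglia and 4 epidermis markers had one. Of the endothelial markers Kdr did (84.3), of the muscle markers Myod1 and Acta1 did, with strengths from 20.4 to 80.7, and of the liver markers Apoa1 did (95.8). The regions of Acta1 and Apoa1 lay at far ends and not at starts. In the longer lists of such markers 4 of 14 blood, 6 of 13 endothelial, 4 of 14 skeletal muscle, 1 of 11 microglia, 3 of 9 epidermal and 3 of 9 liver genes had one, each below the 63.9% of all protein-coding genes. Above that share were 11 of 16 glial genes, 13 of 18 of sensory neurons and neural crest, 28 of 32 interneuron factors and 33 of 36 progenitor genes. The progenitor genes had median percentiles of 77.8 and 78.1 in controls and 66.1 and 71.5 without Hoxa5, where motor neuron identity genes had 82.9, 83.2, 82.7 and 83.4. Each percentile is a rank among all regions of its library, and the lists were longer without Hoxa5. The part of list length in these values was not tested. Lower values without Hoxa5 were not particular to progenitor genes. Hox genes had 78.4, 76.1, 68.7 and 71.2, and other homeobox genes 73.1, 70.3, 65.1 and 67.8. Neurotransmitter receptors went the other way, at 80.0, 78.7, 82.5 and 84.9. Sox2 stood at 88.7, 86.4, 75.3 and 74.8 and Hes5 at 89.95, 89.6, 80.8 and 81.1, while Olig2 stood at 50.05, 67.4, 75.7 and 80.8 and Nes at 91.0, 91.6, 90.8 and 91.8. By another rank, that of −log10 p among the shared regions alone, both Hoxa5-deficient libraries lay below both controls in 32.8% of them and above both in 29.1%. The part of other cells in the libraries was not tested.

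The comparison of the genotypes asks which accessible regions differ without Hoxa5. No gene-end region passed the test of width. In limma's test of log2 width after quantile scaling, with Benjamini-Hochberg adjustment over all 65789 shared regions, 0 gene-end regions and 0 of all shared regions (0%) passed 0.05, and the lowest adjusted p was 0.137. At an unadjusted p under 0.05 there were 1299 gene-end regions (9.15%; 592 wider and 707 narrower without Hoxa5), against 16.8% of all shared regions (9.02% wider and 7.83% narrower). With this scaling gene-end regions were thus below the background of the shared set.

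The regions with the lowest p are given as values, since none passed. Pou2f1, the octamer factor Oct1, covered 1656 and 1581 bp in the controls and 2382 and 2405 bp in the Hoxa5-deficient libraries, a log2 difference of 0.52 ± 0.03 (SE; limma, Benjamini-Hochberg adjusted p = 0.137). Grb14, an adaptor of the insulin receptor, covered 1043 and 1029 bp against 2034 and 2103 bp, a log2 difference of 0.94 ± 0.04 (SE). Lower widths without Hoxa5 were found at 1700113H08Rik, with 1924 and 1890 bp against 1242 and 1251 bp, and at Npr1, a natriuretic peptide receptor, with 1921 and 1918 bp against 1578 and 1552 bp. The 4 were picked by their low p, so the lack of overlap between the genotypes in width follows from the choice. By width rank, both Hoxa5-deficient libraries lay above both controls in 20.9% of all shared regions and below both in 32%. Each of the 4 had the same limma adjusted p (Benjamini-Hochberg) of 0.137.

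Library medians also differed by genotype. Median width of gene-end regions was 953.5 ± 2.12 bp (SD, n = 2) in controls and 1009 ± 2.83 bp (SD, n = 2) without Hoxa5, a difference of 55.5 bp. The other shared regions moved from 459.5 to 550 bp, a difference of 90.5 bp. Summits per gene-end region averaged 2.57 and 2.69, and the share of a library's regions that were gene-end regions was 13.1% and 11.1%. Each of these had an exact permutation p of 0.33, the smallest that 2 libraries against 2 allow. The lists held 109746 and 106783 regions in controls and 122736 and 133896 without Hoxa5, so their length moved with genotype, and its part in the medians was not tested. The recovered background overlapped between the genotypes. Without scaling, 1284 gene-end regions were wider and 253 narrower at an unadjusted p under 0.05, where all 65789 shared regions gave 10176 and 2424. With each library centred on its median, 244 gene-end regions were wider and 4151 narrower, against 4945 and 10646 of all shared regions. The direction of the widths thus rests on the scaling. So does their standing against the background, since with median centring the narrower share was larger at gene ends than over all shared regions.

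Ranks within the shared regions do not carry the length of the lists. By the rank of −log10 p, both Hoxa5-deficient libraries were above both controls in 3511 gene-end regions (24.7%; 29.1% of all shared regions) and below both in 4354 (30.7%; 32.8%). By the rank of width they were above in 1752 (12.3%; 20.9%) and below in 5519 (38.9%; 32%). Shares by −log10 p were thus a little under the background in both directions. In width the excess was toward lower ranks without Hoxa5, in a rank that sets gene ends against the other shared regions, whose median width differed more between the genotypes.

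**Figure D5:**
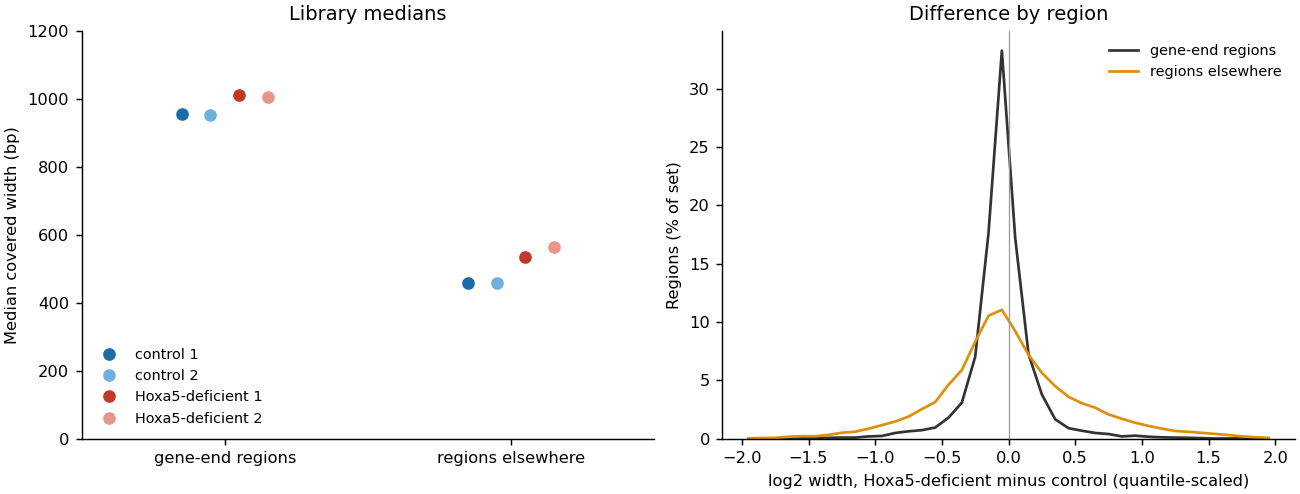
Left, median covered width in bp of gene-end regions and of other shared regions, 1 point per library: both Hoxa5-deficient libraries lie above both controls in each set. Right, % of regions by log2 width difference after quantile scaling, Hoxa5-deficient minus control: gene-end regions form the narrower curve, with a median of -0.05.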

How the data were processed

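ATAC-seq was measured in 4 libraries, 2 control and 2 Hoxa5-deficient, grouped by genotype label. Per the submitters' processing notes the tools were FastQC 0.11.9, Bowtie2 2.3.4.3, SAMtools 1.9 and MACS2 2.2.4 on mm10; parameters and any Tn5 shift are not given in the sources used here. Each library has its own deposited list of peaks with 10 columns, of which interval ends and summit offsets are base positions. The deposited fold is a ratio over background at the summit, beside the p-value and the q-value as −log10; the deposited score was not used. Read depth is not stated, so tag pileup was recovered from fold and −log10 p. A whole pileup met the deposited −log10 p within 0.001 at 100% of 20000 summits per library. These were drawn only from summits under an upper limit of −log10 p. They do not check the strongest summits, where no pileup was recovered.

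Intervals were merged at 1 bp overlap. Gene ends came from a RefSeq table of GRCm38.p6 with 21887 protein-coding genes, and starts from RefSeq promoter windows, matched for 17492 of them. Width differences were tested with limma 3.58.1 in R 4.3.3 (quantile-scaled log2 width, variance trend, Benjamini-Hochberg over 65789 shared regions, threshold 0.05), and library medians with exact permutation tests. The limma step was checked on simulated widths. Other steps used Python 3.11.15, pandas 2.3.3, numpy 2.4.6, scipy 1.17.1 and matplotlib 3.10.9.

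The regions, gene classes and named genes were chosen with earlier results of these data known. Named were the 10 strongest and 10 widest regions, the 5 with most summits, the 3 weakest and narrowest, the 3 strongest and widest at starts and at far ends, the strongest and widest of each class (up to 4 for the motor neuron, Hox, progenitor, interneuron, ribosomal and histone classes), 12 fixed genes (Hoxa5, Hoxb5, Hoxc5, Chat, Slc18a3, Isl1, Isl2, Mnx1, Lhx3, Lhx4, Actb, Gapdh) and the 2 lowest p per direction of the width test. Not all of them are described. Of the listed class genes, only Drgx was not matched. Alternatives were a −log10 q of at least 5, merging at 100 bp overlap, 500 bp to a gene end, the summit within 1 kb, other scalings and covariates of the width test, single-gene regions and leaving out each library.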

Additional observations from a re-analysis of the deposited data

How the results depend on the processing

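The number of gene-end regions ran from 12828 (500 bp to an end) to 14434 (without Hoxa5-deficient library 1). The difference from other shared regions kept its direction in all 7 alternatives tried, at 416 to 498 bp in width, 0.95 to 1.02 summits, 5.64 to 7.20 in fold and 26.3 to 29.96 in percentile. The width test called 0 gene-end regions in 12 alternatives. The median log2 width difference of gene-end regions, Hoxa5-deficient minus control, was -0.05, reversed to 0.06 (0.0553) without scaling between libraries, and was -0.19 with median centring. The other 10 alternatives ran from -0.06 to -0.04. The median over all shared regions shifted too, from -0.04 to 0.11 and -0.14. Gene-end regions with an unadjusted p under 0.05 numbered 1299, against 11085 of all 65789 shared regions. With median centring they numbered 4395, against 15591, and with no variance trend 782, against 11177. Of these settings only median centring gave gene-end regions a larger share than all shared regions. The cause was not tested. The limma fit on libraries of which 1 genotype had a single one assumes that it varies like the other genotype.

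With a replicate block in the limma fit, 0 gene-end regions were called and the lowest Benjamini-Hochberg adjusted p was 0.228. An unadjusted p under 0.05 was found at 1075 gene-end regions and at 10227 of all shared regions. Replicate numbers did not pair the libraries: deviations of same-numbered libraries from their genotype means had a correlation of -0.0078. With the lowest recovered background as a covariate in place of depth, the lowest adjusted p was 0.323. Over all 12 alternatives the lowest adjusted p ran from 0.109 to 0.476.

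Of 39 classes, 13 were above all gene-end regions in median percentile and 14 in both alternatives (tubulins and actins, or immediate early genes, changed side). In median width 16 were above, and 14 and 18 in the alternatives. The 4 that changed side with the stricter q were RNA polymerase subunits, interneuron transcription factors, clustered protocadherins, and tubulins and actins, and the 2 with single-gene regions were RNA polymerase subunits and motor neuron identity. What depth limits here was not tested beyond the covariate for the width fit.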
